A study of Rattus norvegicus with 3 samples.

Results

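The 5 probes with the identifiers ENSRNOG00000003897, ENSRNOG00000011292, ENSRNOG00000003357, ENSRNOG00000014288 and ENSRNOG00000012840 were examined among the 20174 gene probes of a rat oligonucleotide array. They were chosen as the rat genes Col1a1, Col1a2, Col3a1, Fn1 and Sparc, in that order, all 5 were present on the array, and each has 1 probe. The arrays name probes by Ensembl identifier alone, and the rat gene table used here held an Ensembl identifier for 0 of its 47357 genes. The gene behind each probe was therefore not checked, and each is called here the probe chosen for its gene. The study hybridized total RNA from 3 samples of Rattus norvegicus Schwann cell precursors, kept in modified Sato medium under conditions labelled normal, with no genetic change, strain, age or added agent named in the labels. Each sample was labelled with Cy5 and read on its own single-colour array (replicates 1, 2 and 3). The 3 form a single group with no control, and separate cultures or animals are not stated. The p-values below therefore only set a probe's spread between these samples, which may be technical, against that of probes of similar brightness. The cell type is given as Schwann cell precursors, whereas the treatment text speaks of oligodendrocyte precursors. Neither name could be checked against marker genes, for want of symbols.

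Fibrillar collagens are the rope-like proteins of connective tissue. Their chains wind into triple helices that are cut and packed into fibrils outside the cell, with fibronectin guiding assembly and SPARC binding the collagen. In peripheral nerve these fibrils fill the endoneurium around axon and Schwann cell units. Schwann cell precursors are the early glia of embryonic nerves, and fibroblasts, which make abundant fibrillar collagen, are a common companion of Schwann cells in culture.

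All 5 probes were among the bright spots of every array. Each exceeded the background threshold, set 2 SD above the mean of the blank spots of an array, on all 3 arrays, and each also exceeded the higher threshold from the negative control spots on all 3 arrays. None carried a failed scanner flag. Of all 20174 gene probes, 85.3% were above the blank threshold in replicate 1, 89.2% in replicate 2 and 84.0% in replicate 3, so detection alone does not set these probes apart. The spot median, the brightness of a spot before any correction, ranked the probes in 1 order on every array, from the probe chosen for Col3a1 through those for Col1a1, Col1a2 and Fn1 to that for Sparc. Brightness also depends on how well a probe binds its target, so this is an order of spots and not of transcripts.

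**Figure D1:**
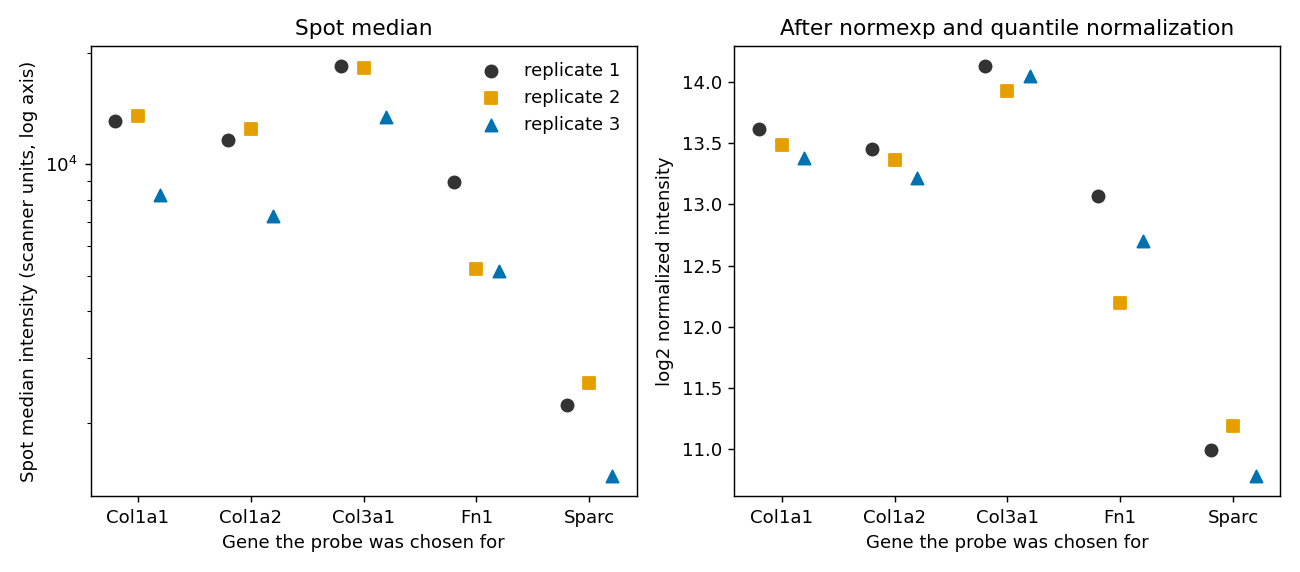
The left panel plots the spot median of each of the 5 probes (scanner units, log axis) and the right panel the log2 intensity after background correction and quantile normalization, with 1 symbol per replicate. The 3 collagen probes lie between 13.22 and 14.13 on the log2 scale in every replicate, and the probe chosen for Fn1 is the most widely spread, from 12.19 in replicate 2 to 13.07 in replicate 1.

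Col1a1 and Col1a2 encode the chains of type I collagen, the main fibril-forming collagen of connective tissue. The probe chosen for Col1a1 had spot medians of 13062, 13558 and 8283 in replicates 1, 2 and 3, which placed it at ranks 101, 124 and 143 of the gene probes. The probe chosen for Col1a2 had 11604, 12477 and 7271 units in replicates 1, 2 and 3, at ranks 131, 146 and 165. Replicate 3 was the dim array for both before normalization, and their ranks were close together on every array. After normexp correction and quantile normalization, which gives the arrays the same overall distribution, log2 intensity was 13.62, 13.49 and 13.38 for Col1a1 in replicates 1, 2 and 3 (mean 13.50 ± 0.12, SD, n = 3). The same values for Col1a2 were 13.45, 13.36 and 13.22 (mean 13.34 ± 0.11, SD, n = 3). The Col1a1 probe was the brighter spot of the pair on each array, although the ranges of the probes over the arrays overlap.

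Col3a1 encodes the chain of type III collagen, which forms fibrils together with type I collagen in soft tissues and nerve. Its probe was the brightest of the 5 on every array, with spot medians of 18410, 18221 and 13405 in replicates 1, 2 and 3 and ranks of 41, 63 and 48. Normalized log2 intensity was 14.13, 13.93 and 14.05 (mean 14.04 ± 0.10, SD, n = 3). In this setting its lowest value lay above the highest value of the probe chosen for Col1a1. This did not hold for the spot medians or in the deposited value table (lowest 8120 for Col3a1, highest 8861 for Col1a1). It also did not hold once local background was removed (below). The brightest gene probe on each array read 56430, 46538 and 57461 units, so none of these spots was at the top of the observed scale.

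Fn1 encodes fibronectin, the adhesive glycoprotein that binds integrins and seeds collagen fibrils. Its probe had spot medians of 8966, 5210 and 5142 in replicates 1, 2 and 3, at ranks 187, 348 and 243. Log2 intensity after normalization was 13.07, 12.19 and 12.70 (mean 12.65 ± 0.44, SD, n = 3). Replicate 1 was highest and replicate 2 lowest, 0.87 apart on the log2 scale or 1.83-fold. For the type I collagen probes replicates 1 and 2 lay at most 0.14 apart. Replicate 1 minus replicate 2 was 0.20 for the Col3a1 probe and -0.20 for the Sparc probe. The median size of this difference was 0.26 over the brightest 10% of the gene probes detected on every array. All values of the Fn1 probe lay below those of the collagen probes and above those of the Sparc probe.

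Sparc encodes a collagen-binding protein secreted by matrix-producing cells and also by glia. Its probe was the dimmest of the 5, with spot medians of 2233, 2565 and 1437 in replicates 1, 2 and 3 and ranks of 775, 676 and 889. It was still brighter than 95.6% or more of the gene probes on each array. Log2 intensity was 10.99, 11.19 and 10.78 (mean 10.99 ± 0.20, SD, n = 3), with replicate 2 highest and replicate 3 lowest.

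**Figure D2:**
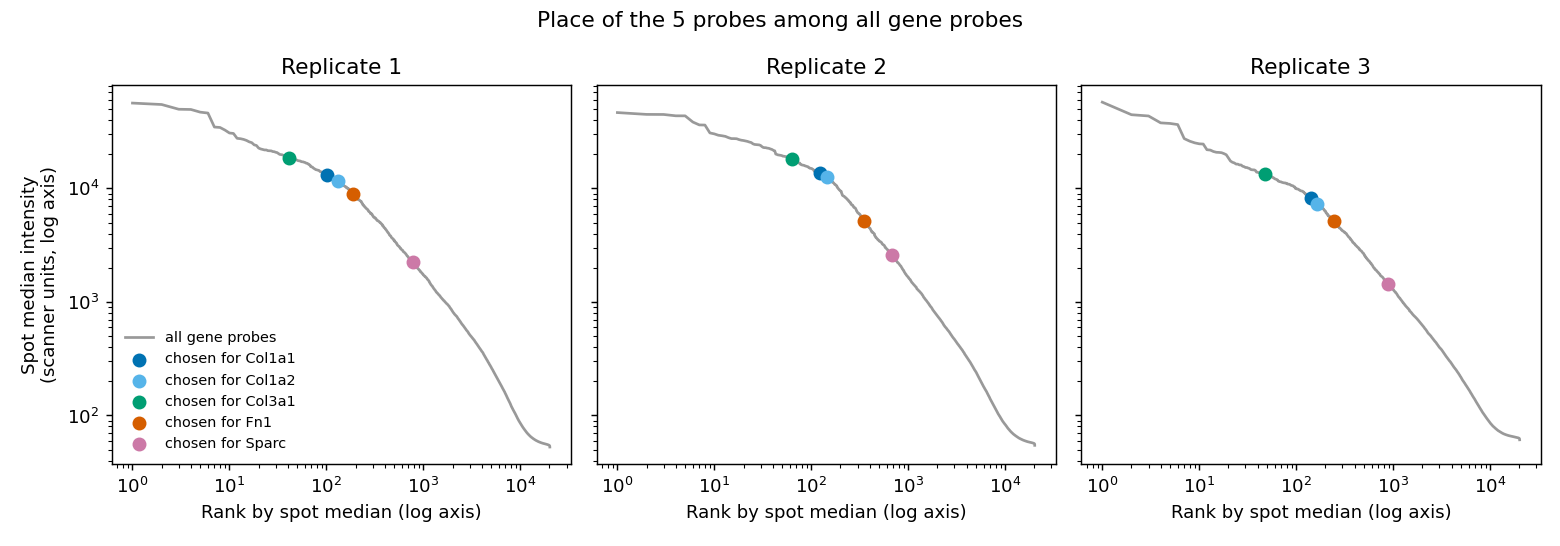
Each panel plots the spot median of all 20174 gene probes of an array against their rank (both axes logarithmic, grey line), with the 5 probes as coloured points. On every array the collagen probes sit between ranks 41 and 165, the probe chosen for Fn1 between 187 and 348 and that for Sparc between 676 and 889.

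The 5 probes together carried 0.616%, 0.586% and 0.544% of the signal above the blank mean of all gene probes above background in replicates 1, 2 and 3. The 3 collagen probes alone carried 0.490%, 0.499% and 0.445%. The signal of the probe chosen for Col3a1 was 342, 477 and 325 times the median of such probes in replicates 1, 2 and 3. For the probe chosen for Sparc it was 40.6, 65.8 and 33.4 times. These multiples of Col3a1 and Sparc were largest in replicate 2, where more gene probes passed the threshold and the median was lowest. Those of the probe chosen for Fn1 were 166, 135 and 124, largest in replicate 1.

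The next question was whether the probes varied between the samples more than other genes. None of the 5 passed limma's test of the residual variance over the arrays at a Benjamini-Hochberg adjusted p under 0.05, where 0.0123% of the 16226 gene probes detected on every array did, and 0 of 5 had an unadjusted p under 0.05, where 5.74% of all did. Such a p only sets a probe's spread against that of probes of its level. Nearest to passing was the probe chosen for Fn1, with an unadjusted p of 0.067 and an adjusted p of 0.88 by limma. The other 4 had unadjusted p-values of 0.51 to 0.84. A range of 2-fold or more over the arrays was reached by 0 of the 5, against 0.622% of all probes tested and 2.22% of the brightest 10% of them (1622 probes), among which all 5 fall.

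After quantile normalization, the collagen probes had narrow ranges for bright probes and the probe chosen for Fn1 a wide one, but this did not hold under every scaling. The median range over the arrays was 0.24 for the 5 probes, 0.18 for all tested and 0.37 for the 1622 brightest, on the log2 scale. The ranges were 0.24 for Col1a1, 0.22 for Col1a2 and 0.20 for Col3a1, and 75.3%, 79.2% and 84.0% of the 1622 brightest probes had a wider range than these. The range of 0.40 for Sparc was exceeded by 43.1% of them, and the range of 0.87 for Fn1 by 3.95%. Cyclic loess, another normalization, gave similar ranges: 0.19 for Col1a1, 0.21 for Col1a2, 0.21 for Col3a1, 0.86 for Fn1 and 0.44 for Sparc. With median scaling the ranges were 0.64 for Col1a1, 0.71 for Col1a2, 0.37 for Col3a1, 0.71 for Fn1 and 0.78 for Sparc, beside a median of 0.52 for the 1622 brightest. In the deposited value table they were 0.82, 0.89 and 0.55 for the collagens in the same order, 0.98 for Sparc and 0.43 for Fn1, beside a median of 0.62, and Fn1 was then the narrowest of the 5. Within a single array, 24 copies of positive control 1, at a median brightness of 9038 to 13985 units, had a log2 SD of 0.085 to 0.12, and those of positive control 2 an SD of 0.099 to 0.21, which covers spot noise alone and not the spread between samples.

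**Figure D3:**
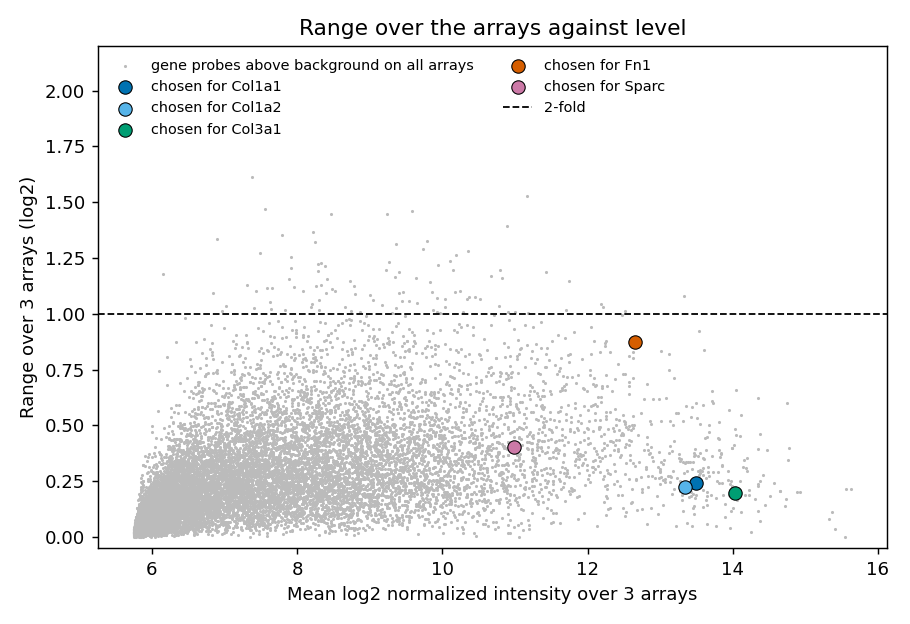
The range of log2 intensity over the 3 arrays is plotted against mean log2 intensity for the 16226 gene probes detected on every array (grey) and the 5 probes (coloured), with a dashed line at 2-fold. Values are quantile normalized. The probe chosen for Fn1 lies at 0.87, below the line, and the 3 collagen probes lie at 0.20 to 0.24.

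Which array was highest depended on the scaling. After quantile normalization, replicate 1 was highest for 4 of the 5 probes, an array that was highest for 31.4% of all probes tested and 32.1% of the brightest 10%. With median scaling replicate 2 was highest for 4 of 5, as it was for 34.2% of all and 53.7% of the brightest 10%. In the deposited value table replicate 2 was also highest for 4 of 5, against 71% of all and 84.8% of the brightest 10%. In that table the probe chosen for Col1a1 was listed at 6070, 8861 and 5003 in replicates 1, 2 and 3, and the probe chosen for Fn1 at 4158, 3382 and 3091. Fn1's probe was the exception under both of these scalings, with replicate 1 highest. The array with the highest collagen signal thus changed with the scaling.

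The ratio of a pair of probes within an array is unchanged when an array is multiplied by a constant, as in median scaling of blank-subtracted values, though not by quantile normalization, which bends the scale. With the blank mean subtracted, the log2 ratio of the probe chosen for Col1a1 to that for Col1a2 was 0.17, 0.12 and 0.19 in replicates 1, 2 and 3, a spread of 0.069. Of the other 1621 probes among the brightest, 2.22% had a narrower spread of their ratio to the Col1a1 probe, and the median spread was 0.47. The ratio of Col1a2 to Sparc was 2.41, 2.31 and 2.39, a spread of 0.099, and that of Col1a1 to Sparc spread by 0.15. With quantile normalized values the spreads were 0.050 for Col1a1 to Col1a2, 0.28 for Col1a2 to Sparc and 0.33 for Col1a1 to Sparc, so the narrow ratios to Sparc depend on the scaling. For Col3a1 the spreads with the blank mean subtracted were 0.27 against Col1a1, 0.34 against Col1a2 and 0.42 against Sparc. Narrower spreads were held by 22.1% of the brightest probes against Col1a1, by 29.4% against Col1a2 and by 38.4% against Sparc, so these pairs were not among the steadiest.

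Fn1's probe had the widest spreads. The log2 ratio of Col1a1 to Fn1 was 0.55, 1.39 and 0.69 in replicates 1, 2 and 3. Over the 4 pairs that hold Fn1 the spread was 0.78 to 0.99, and over the 6 pairs without it 0.069 to 0.42. The difference rests mainly on replicate 2: without it, the Fn1 pairs spread by 0.13 to 0.35 and the other pairs by 0.0033 to 0.22. Without replicate 1 these spreads were 0.42 to 0.85 and 0.069 to 0.42, and without replicate 3 0.78 to 0.99 and 0.051 to 0.22. The Col3a1 to Fn1 ratio narrowed without either array, to 0.42 without replicate 1 and 0.35 without replicate 2. Of the brightest probes, 89.4% to 90.7% had a narrower spread of their ratio to Fn1's partner in each pair. For ratios to the Fn1 probe itself, 47.3% to 68.5% were narrower and the median spread was 0.80. Spreads of this size were thus usual for the Fn1 probe against bright probes. With 3 arrays these are descriptions, and no test of joint variation was made.

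**Figure D4:**
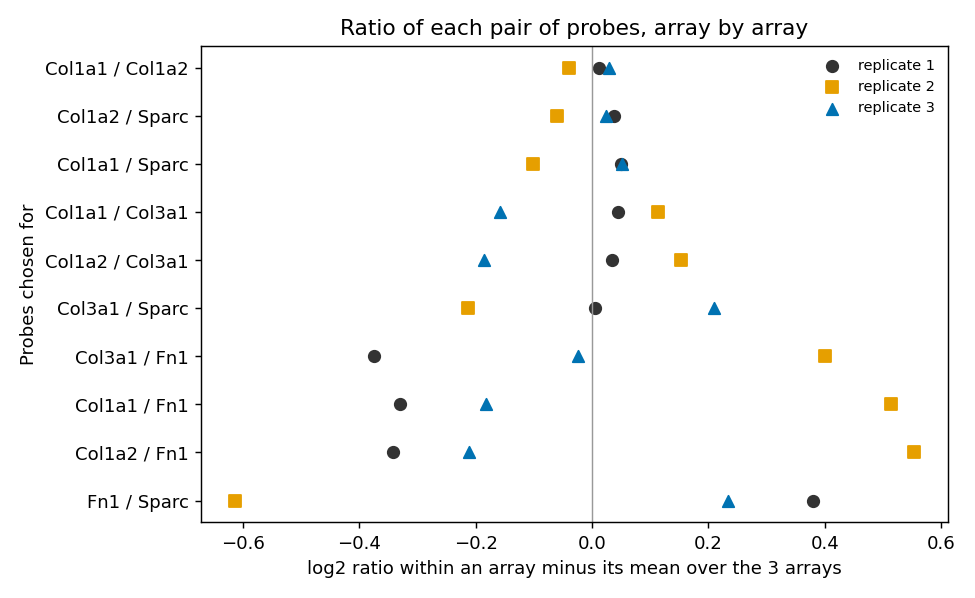
For each of the 10 pairs of probes, the log2 ratio within an array minus its mean over the 3 arrays is plotted, with 1 symbol per replicate and pairs ordered by their spread. The pairs of Col1a1, Col1a2 and Sparc lie near 0 in every replicate, while in the 4 pairs that include Fn1 replicate 2 is farthest from the mean.

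The brightness around the spots also differed between arrays. Local background, the median read beside a spot, was 46.7% of the spot median for the Col1a1 probe in replicate 1, 11.4% in replicate 2 and 29.2% in replicate 3. For the Fn1 probe it was 86.1%, 10.8% and 52.2%, and for the Col3a1 probe 63.1%, 53.0% and 32.4%. Among all gene spots brighter than 500 units the median share was 73.6%, 22.0% and 44.3%, so the share was high across the bright spots of replicate 1. Its part in the differences above was not tested beyond recomputing them with this background removed. Then the Fn1 probe read 11.00, 11.51 and 11.61 on the log2 scale, lowest in replicate 1 where it had been highest. The Col3a1 probe read 13.40, 12.36 and 13.45 and was then the 1 of the 5 with a 2-fold range, where 12.8% of all probes tested and 39.3% of the brightest 10% had one. The Col1a1 probe read 13.43, 12.87 and 12.88 and the Col1a2 probe 13.09, 12.66 and 12.92. The Col3a1 probe was thus the brightest of the collagen probes in replicate 3 alone. Spreads of the pair ratios then ran from 0.94 to 1.55 with Fn1 and from 0.39 to 1.77 without it. These ratios used quantile normalized values, unlike the blank-subtracted ratios above. Every pair spread was wider than with quantile normalized values before this background was removed, and also wider than with the blank mean subtracted. Spreads with and without Fn1 overlapped, with medians of 1.20 and 0.89. The Col1a1 to Col1a2 ratio, with a spread of 0.39, was still the narrowest of the pairs.

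Promoter sequence is shown for Col1a2 and Sparc, as an example of a collagen gene and the gene of a collagen-binding protein. It was matched by gene symbol to a table of RefSeq promoters for build GRCr8, where these 2 of the 5 symbols had an entry. Capitals mark the letters CCAAT and TATAAA on either strand (ATTGG is CCAAT on the opposite strand), searched in the 250 bases before the annotated start, and the motifs do not overlap. The first 100 bases of that window are printed for Col1a2 (chr4:33518307-33518406, plus strand) and all 250 for Sparc (chr10:40038817-40039066, minus strand).
Col1a2: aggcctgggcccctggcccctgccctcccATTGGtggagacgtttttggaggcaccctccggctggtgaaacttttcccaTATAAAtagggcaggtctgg
Sparc: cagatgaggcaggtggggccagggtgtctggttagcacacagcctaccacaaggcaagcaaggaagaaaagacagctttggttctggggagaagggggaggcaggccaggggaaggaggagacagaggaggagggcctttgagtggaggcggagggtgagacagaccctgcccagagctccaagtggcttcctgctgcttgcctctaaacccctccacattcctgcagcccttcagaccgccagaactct
The Col1a2 window held 1 match to CCAAT and 1 to TATAAA, and the Sparc window held neither. The Col1a2 matches began 221 (CCAAT) and 170 (TATAAA) bases before the annotated start. Among 33469 rat promoter windows of 250 bases, 34.0% held CCAAT and 12.9% held TATAAA. A match describes letters in this window and no binding was measured.

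The probes nearest in log2 intensity were sought by Euclidean distance over the 3 arrays, among the 16225 other gene probes. This distance follows brightness first, which depends on probe binding, and so says little about shared expression. The nearest to the Sparc probe was ENSRNOG00000039155, at a distance of 0.049, with 10.98, 11.22 and 10.74 in replicates 1, 2 and 3. The nearest to the Col1a1 probe was ENSRNOG00000031506, at 0.070, with 13.66, 13.55 and 13.36. The files pair neither identifier with a gene.

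Mesenchymal cells in the culture and matrix made by the glial cells themselves cannot be told apart here. In bulk RNA, fewer cells of a type and less RNA per cell give the same reading. The lists meant to bear on this, 7 of matrix genes (other fibrillar collagens, collagen processing and crosslinking, fibril-associated matrix, basement membrane, matricellular proteins, receptors, proteases) and 6 of cell type markers (mesenchymal, Schwann lineage, oligodendrocyte precursor, endothelial, macrophage and neuronal), hold 112 entries. None was placed on the array, for want of identifiers.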

How the data were processed

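Total RNA was purified with ISOGEN and RNeasy, amplified to amino allyl aRNA and labelled with Cy5, per the labels' protocols. The scanner files hold, per the file headers, the spot median and local background intensity on a linear scale, with nothing subtracted; the scanner software is not stated. For each column of the deposited value table, a constant was subtracted from the spot median intensity and the result multiplied by a factor. The constant was 55.4, 56.9 and 63.8 in replicates 1, 2 and 3, as was the blank mean. Each column has a median of 25 over its listed probes.

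Spot medians were corrected by limma's normexp (offset 50), gene probes quantile normalized, and log2 taken. The offset compresses dim probes. The threshold was the mean plus 2 SD of blank spots, without the top and bottom 5%, and flagged spots failed. Replicate 2 had 5808 spots labelled blank and 809 labelled no probe, against 1344 and 5273 in replicates 1 and 3. Its blank mean and threshold thus come from a differently labelled set of spots. Variance used limma's intercept-only fit with the tail p of its robust, level-dependent prior, adjusted by Benjamini-Hochberg over 16226 probes. It was also run on simulated data, but its power with 3 arrays is not reported here, so a probe that fails may still vary. Local background was left out of the chosen setting because it rose with spot brightness over gene spots above 500 units (Spearman's rho across spots 0.94, 0.64 and 0.80 in replicates 1, 2 and 3). Pair ratios used the blank mean subtracted, except where quantile normalized values or removal of local background are named. The number of arrays limits precision.

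The members, lists and tests were chosen with earlier results of these data known. The probes named are the 5 members and the probe nearest each, of which the 2 closest are printed. Alternatives covered the threshold, filter, scaling, background, blocks, value table and leaving out each array. R 4.3.3 with limma 3.58.1 did the fits, Python 3.11.15 the summaries, and matplotlib 3.10.9 the figures.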

Additional observations from a re-analysis of the deposited data

How the results depend on the processing

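All 5 probes stayed above background on all arrays under each threshold tried, and all 5 were listed for every array in the value table. Detection was not recomputed for the other scalings, backgrounds, blocks or left-out arrays, so the count could not change there. Without a filter the count does not apply. In all 13 alternatives, 0 of 5 passed limma's adjusted variance test. Without replicate 3, the unadjusted p of the probe chosen for Fn1 by limma was 0.032, and over all alternatives it ran from 0.032 to 0.77. The count with a 2-fold range was 1 with normexp on local background (Col3a1) and 0 in the other 12. The members' median brightness percentile among probes tested, 99.1, was 98.8 with the negative control threshold and 99.3 with no filter, which change only the probes ranked against, 99.4 with local background, and 99.0 to 99.2 leaving out each array. The log2 range of Fn1 was 0.36 without replicate 2, 0.53 without replicate 1 and 0.43 in the value table. With median scaling and in the value table, the ranges of Col1a1 (0.24) were 0.64 and 0.82, of Col1a2 (0.22) 0.71 and 0.89, of Col3a1 (0.20) 0.37 and 0.55, and of Sparc (0.40) 0.78 and 0.98. Without replicate 2, that of Col3a1 was 0.038. The pair ratios and their alternatives were chosen after seeing the data; with quantile normalized values the spreads were 0.67 to 1.07 with Fn1 and 0.050 to 0.52 without. The cause of these changes was not tested. No paired analysis was possible because there is 1 group of samples.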
